A study of Drosophila melanogaster with 15 samples.

Results

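The 3 control libraries of newly eclosed flies, out of 15 libraries in the series, were described without contrast to any other group. They were chosen by their titles as the juvenile mCherry libraries, replicates 1 to 3. Each held RNA from mushroom body nuclei of males collected 0 to 3 hours after eclosion, with the genotype UAS-unc84::GFP/+;R14H06-Gal4/UAS-mCherryRNAi. The R14H06-Gal4 driver thus expressed both UNC84-GFP, a tagged nuclear envelope protein by which nuclei are pulled down (the INTACT method), and a hairpin against mCherry, a sequence that flies lack. All groups of the series carry this driver and tag, so the cells recovered are those in which the driver is active, together with whatever nuclei or RNA came along in the pull-down. Flies were raised at 25°C and 70% humidity. The labels do not say whether the libraries came from separate sets of flies, so the spread between them may in part be technical.

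Kenyon cells are the intrinsic neurons of the mushroom body, the centre for olfactory memory in the insect brain. Nuclear RNA holds unspliced and retained transcripts as well as mRNA on its way out, so long neuronal genes and nuclear noncoding RNAs rank higher in it than in whole-cell RNA. Flies that have just left the pupal case are finishing the ecdysone-driven remodelling of the brain while their cuticle is tanning and their adult muscles come into use.

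The libraries held 37879789, 43900119 and 45731087 reads counted to genes in replicates 1, 2 and 3. Levels are given in CPM (counts scaled per library total) after scaling by TMM factors of 1.07, 0.958 and 0.973, in the same order. A level of 10 CPM stood for 406 to 445 reads. Of the 17559 genes in the files, 5255 (29.9%) had a mean of 10 CPM or more and were analysed, and they took 97.8% to 98.6% of the gene counts. No pair of libraries was a duplicate: the chi-square of their counts per degree of freedom was 127 between libraries 1 and 2, 110 between 1 and 3, and 56.8 between 2 and 3. Spearman's rho across genes, which are not independent replicates, was 0.971, 0.969 and 0.981 for these pairs.

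Kenyon cell markers were abundant in every library. All 22 markers found in the files passed 10 CPM, and their summed level was 23607 CPM in library 1, 31291 CPM in library 2 and 29936 CPM in library 3. Pan-neuronal genes, which Kenyon cells also express, summed to 27907 to 37409 CPM. Summed levels of markers of other cells were 17574 to 21564 CPM for muscle structural genes, 12457 to 12909 CPM for phototransduction genes and rhodopsins, 5096 to 5894 CPM for markers of other neurons and 2337 to 2387 CPM for glial markers. Single members carried much of some sums, with 2550 to 3260 CPM from ple among other neurons, 3259 to 3729 CPM from Ggamma30A among phototransduction genes and 952 to 1005 CPM from Gs2 among glial markers. Among muscle structural genes, Msp300 had 4195 to 4665 CPM. The median members of the other neuron, phototransduction, glial and muscle lists had means of 105, 241, 84.7 and 367 CPM. ninaE, the major rhodopsin of photoreceptors, had 1386 to 1724 CPM and the glial factor repo 19.9 to 30.2 CPM. In these bulk samples, fewer cells of a type and less RNA per cell cannot be told apart.

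The most abundant RNA was lncRNA:Hsromega, a nuclear noncoding RNA of the heat shock locus, with 13474, 14932 and 14633 CPM in libraries 1, 2 and 3. Its highest level was 1.11 times its lowest. CG13722 came next, with 9168, 12748 and 16959 CPM, a ratio of 1.85. Atpalpha, the catalytic subunit of the sodium pump, had 8602, 10211 and 10502 CPM. Ppr-Y, a gene of the Y chromosome, came next, with 5832, 11317 and 8151 CPM. The RNA-binding protein gene mub, a Kenyon cell marker, had 4610, 6644 and 6162 CPM, and the potassium channel gene Sh had 4036, 6075 and 5831 CPM.

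Other noncoding RNAs also stood among the 20 most abundant. lncRNA:CR42862 had 5414, 6041 and 5884 CPM, and lncRNA:roX1, which with roX2 scaffolds the dosage compensation complex on the male X, had 3216, 3933 and 3559 CPM. The large ribosomal RNA of the mitochondrion, mt:lrRNA, is not a nuclear transcript. It was among these genes with 6961, 5381 and 3851 CPM. The remaining genes of this set included cpx, Appl and Rdl, which act at synapses or in neuronal membranes, and the neuronal differentiation factor pros. The 20 genes together took 10.8% to 12.1% of the gene counts. Per kilobase of annotated exon the order changed: CG13722 had 4978 CPM per kb, Ppr-Y 4932, mt:lrRNA 4077 and Atpalpha 1463, whereas lncRNA:Hsromega had 661. Whether reads in introns were counted is unknown from the sources used here.

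The ratio of the highest to the lowest library had a median of 1.28 over the 5255 genes. The quartiles were 1.16 and 1.46, and the 95th percentile was 2.03. A ratio of 2 or more was reached by 285 genes (5.42%) and a ratio of 4 or more by 27 genes (0.514%). Of these 27, 16 were highest in library 1, 2 in library 2 and 9 in library 3, or 0.304%, 0.0381% and 0.171% of all analysed genes. With 3 libraries of 1 group no test of these differences was possible, and all ratios are descriptions. A ratio over 2 libraries cannot exceed that over 3. Without library 1 the share at 2 or more was 1.45%, without library 2 it was 3.28%, and without library 3 it was 3.12%. The share at 4 or more was 0.232% without library 1.

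Among the genes at a ratio of 2 or more, 170 (3.24% of all analysed) were highest in library 1, 45 (0.856%) in library 2 and 70 (1.33%) in library 3. Over all analysed genes, 33.0% were highest in library 1, 36.4% in library 2 and 30.7% in library 3, and 44.2%, 29.2% and 26.7% were lowest in them. These splits depend on the scaling. With total gene counts and no TMM factor, 52.3%, 23.5% and 24.3% of genes were highest in libraries 1, 2 and 3. The median gene was 0.05 lower in library 1 than in library 2 on the log2 scale with TMM factors (a log2 ratio of -0.05), and 0.11 higher with total counts.

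The spread was largest among weakly expressed genes. Among the 1051 genes with the lowest mean levels, up to 18.2 CPM, the median ratio was 1.52 and 189 genes reached a ratio of 2. Among the 1051 highest, from 208 to 14347 CPM, the median was 1.20 and 4 genes (0.381%) reached it. A gene that passed the minimum only through the library where it was high had to differ. Genes just inside the minimum (10 to 11 CPM, 182 genes) had a median ratio of 1.64, and genes just outside it (9 to 10 CPM, 189 genes) one of 1.66. Which library was highest also moved with level: the share of genes highest in library 1 was 45.7% among the 1051 lowest and 14.6% among the 1051 highest, and for library 2 it was 25.7% and 56.9%. Genes with short exons varied more than genes with long ones, with median ratios of 1.39 in the 1025 genes with the shortest summed exons and 1.20 in the 1024 with the longest.

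**Figure D1:**
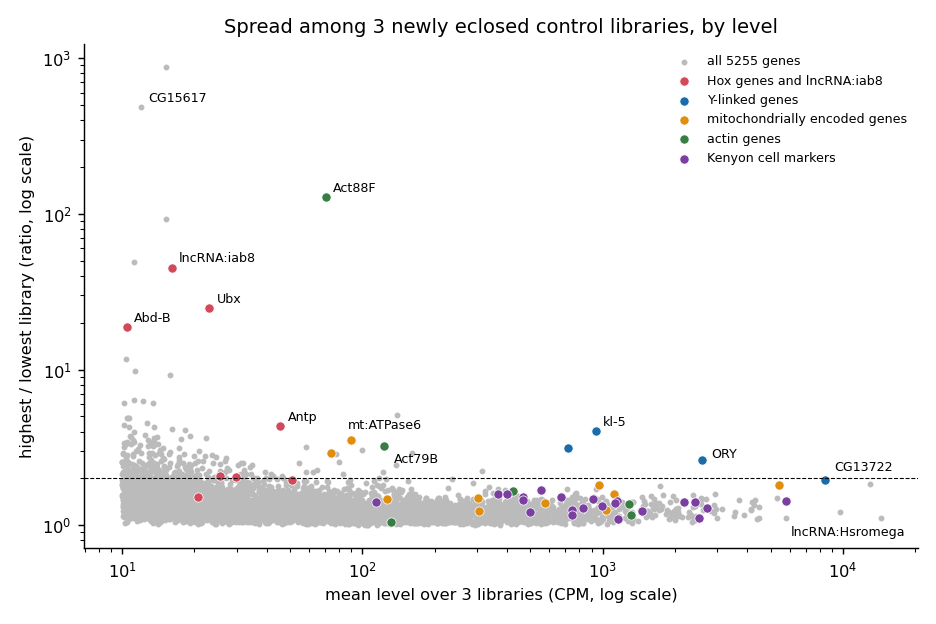
Ratio of the highest to the lowest of the 3 libraries against mean level for the 5255 genes with a mean of 10 CPM or more, both on log axes. Coloured points mark the Hox genes with lncRNA:iab8, Y-linked genes, mitochondrially encoded genes, actin genes and Kenyon cell markers. The dashed line is a ratio of 2, which 5.42% of genes reach, mostly at low levels. The Y-linked genes lie at or near the line or above it at much higher levels than most other genes that reach it.

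At the other end, CG1317 had 115.3, 115.5 and 115.5 CPM in libraries 1, 2 and 3, a ratio of 1.00. VGAT, the vesicular GABA transporter of inhibitory neurons, had 106, 105 and 105 CPM, and the axon guidance gene sli had 295, 292 and 294 CPM. These were among the 5 genes with the smallest ratios at 100 CPM or more, all of which were at 1.01 or below.

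Ranked by the median ratio of their members, 53 lists with at least 5 analysed genes ran from 2.64 down to 1.12, beside 1.28 for all analysed genes. The list of male germline and Y-linked genes came first and the Hox genes second. Both kept these places under each of the other scalings tried, with a minimum of 20 CPM, without library 3 and by the coefficient of variation. Their order was turned round with a minimum of 5 CPM and without library 1. Without library 2, Hox genes came first and actins second. By edgeR's biological coefficient of variation, glutathione S-transferases came first and Hox genes second. With no level minimum, the E(spl) complex and serine proteases led. With at least 8 members per list, or with only genes that overlap no other gene, neither list had enough members to be ranked. The lists with the smallest medians were glial markers (1.12), glycolysis and lactate genes (1.16) and ecdysone response genes (1.17).

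**Figure D2:**
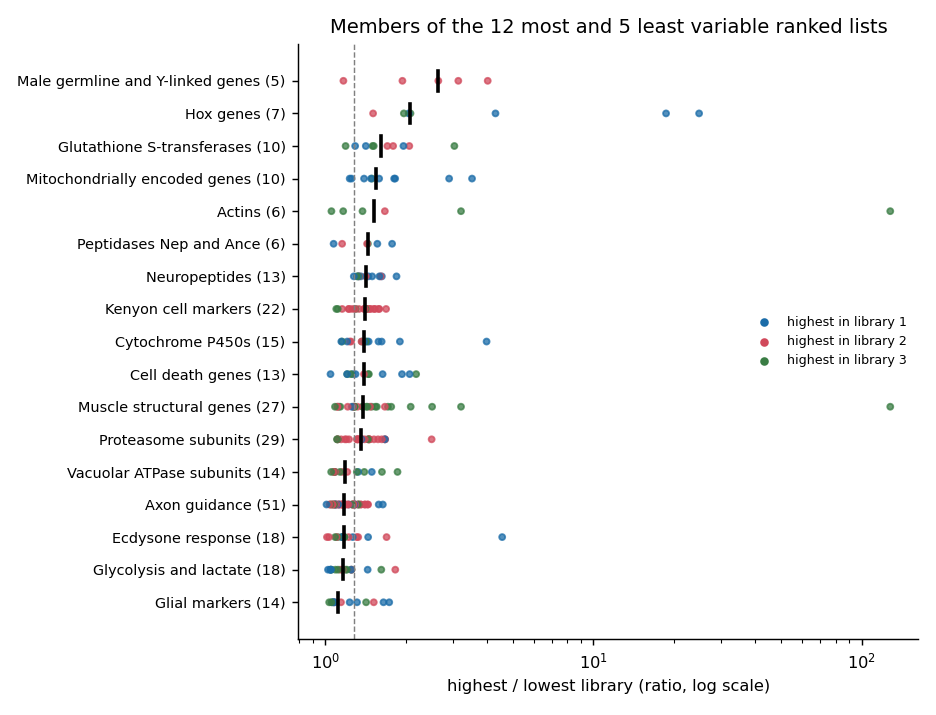
Ratio of the highest to the lowest library (log axis) for each analysed member of the 12 ranked lists with the largest medians and the 5 with the smallest, with the number of analysed members in brackets. Points are genes, coloured by the library with the highest level, black bars are list medians and the dashed line is the median of all analysed genes, 1.28. Most members of every list lie within a ratio of 2, except in the germline and Y-linked list and the Hox list.

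Hox genes encode the homeodomain factors that give segments their identity along the body axis. The adult mushroom body lies in the brain, in front of the segments where the bithorax complex is known to act. Of 12 genes listed, 7 passed the level minimum. Their median ratio was 2.08. Of the 7, 5 reached a ratio of 2 and 3 a ratio of 4, beside 5.42% and 0.514% of all analysed genes. The median member had a mean of 25.6 CPM, and 68 of the 1051 genes from 18.2 to 37.6 CPM reached a ratio of 2. Abd-B, at a ratio above 4, passed the minimum only through library 1, so it had to differ. Ubx, also above 4, likewise fell under the minimum without library 1, with 2.00 and 17.6 CPM in libraries 2 and 3. Without library 1, 5 Hox genes passed, with a median ratio of 1.96, beside 1.12 for all genes. Library 2 was the lowest for 6 of the 7, under all scalings tried, beside 29.2% of all analysed genes with TMM factors.

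The bithorax complex genes, which specify the posterior thorax and the abdomen, differed the most. Ubx had 49.5 CPM in library 1, 2.00 CPM in library 2 and 17.6 CPM in library 3, a ratio of 24.8. Abd-B had 23.1, 1.24 and 7.17 CPM, a ratio of 18.7. abd-A stayed under the minimum with 12.2, 0.618 and 7.80 CPM, in the same order of libraries. lncRNA:iab8, a noncoding transcript from the interval between abd-A and Abd-B, had 44.05, 0.975 and 3.35 CPM, a ratio of 45.2. In these 4 genes library 1 was high, library 3 intermediate and library 2 low. lncRNA:iab8 overlaps other genes on both strands, so the source of its reads is uncertain. This transcript also passed the level minimum only through library 1, so it had to differ and be highest there.

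On the BDGP6.54 annotation all 4 are on the minus strand of chromosome arm 3R, Ubx at 16656623 to 16734426, abd-A at 16807214 to 16830049, lncRNA:iab8 at 16831116 to 16923231 and Abd-B at 16927212 to 16972236. Of the 14 annotated genes from Ubx to Abd-B, 5 had a mean of 1 CPM or more, and all 5 were highest in library 1. For comparison, library 1 was highest for 45.7% of the 1051 analysed genes with the lowest levels, 10 to 18.2 CPM. Ubx, abd-A, lncRNA:iab8 and Abd-B were lowest in library 2. The fifth was lncRNA:bxd, a noncoding gene of the Ubx regulatory region, with 8.51 CPM in library 1 and no read in libraries 2 and 3, where 3 reads would be 0.0713 and 0.0674 CPM. It passed the mean of 1 CPM only through library 1, so it had to be highest there. The other 9 genes of the region had means under 1 CPM.

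In the Antennapedia complex, which serves the head and anterior thorax, Antp had the widest spread. It had 73.4 CPM in library 1, 17.0 CPM in library 2 and 46.2 CPM in library 3, a ratio of 4.31. Dfd had 43.8, 21.4 and 24.5 CPM, and pb, which specifies mouthparts, had 27.9, 15.9 and 33.0 CPM. Scr had 41.6, 37.6 and 73.9 CPM, highest in library 3. lab, the most anterior gene of the set, had 22.6, 23.8 and 15.8 CPM and was the single analysed Hox gene for which library 2 was not the lowest.

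The homeobox gene lbl, which acts in muscle and heart precursors, had the order of the bithorax genes, with 21.8, 2.23 and 10.1 CPM. So did Ser, a ligand of the receptor Notch, with 19.6, 4.04 and 8.34 CPM, and the ecdysone-inducible gene ImpE1, with 24.7, 5.40 and 7.87 CPM. These genes lay near the level minimum and passed it only through library 1, so library 1 had to be highest. Of the 285 genes at a ratio of 2 or more, 96 were highest in library 1 and lowest in library 2. Summed over all genes under a mean of 10 CPM, the level was also highest in library 1 with 20290 CPM, against 14364 CPM in library 2 and 16118 CPM in library 3. Library 1 detected 11264 genes with at least 1 read, library 2 10026 and library 3 10381. The part of this broader difference in the Hox values was not tested.

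**Figure D3:**
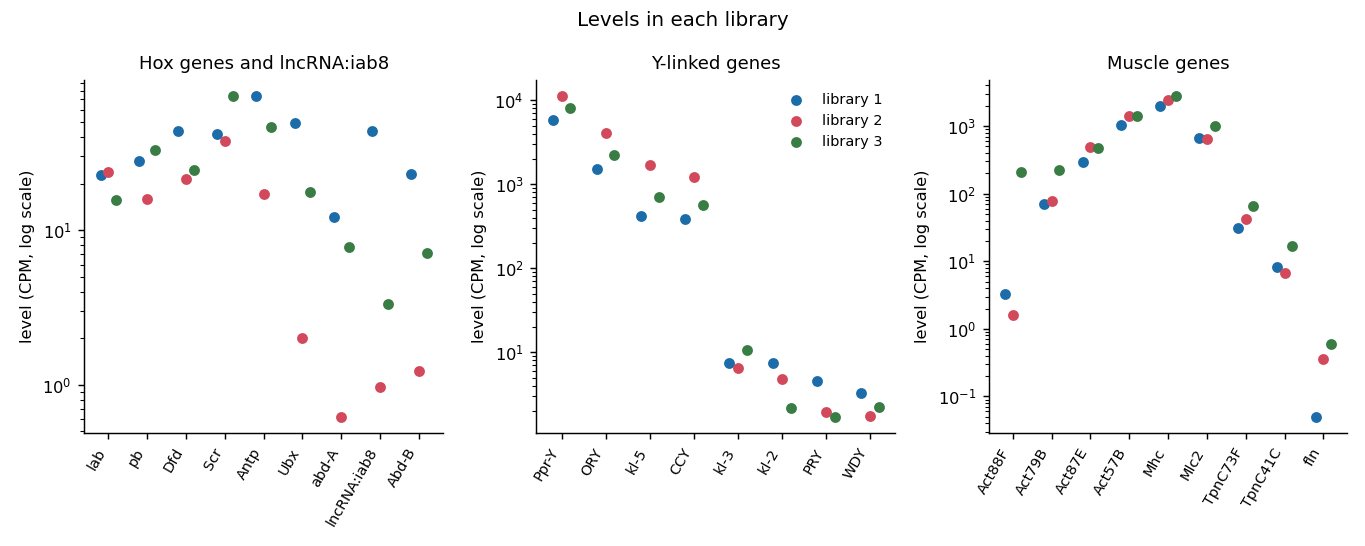
Levels (CPM, log axes) in libraries 1, 2 and 3 of Hox genes with lncRNA:iab8, Y-linked genes and muscle genes, 1 point for each library. Library 2 is lowest for the bithorax genes Ubx, abd-A, lncRNA:iab8 and Abd-B and highest for Ppr-Y, ORY, kl-5 and CCY, and library 3 is far above the others for Act88F.

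The Y chromosome carries few protein-coding genes, known mainly for their work in sperm formation: kl-2, kl-3 and kl-5 encode dynein heavy chains of the sperm tail, and ORY and CCY encode coiled-coil proteins needed in the testis. Of 71 annotated Y genes in the files, 27 had a read in any library and 4 passed 10 CPM. All 4 were highest in library 2 and lowest in library 1, beside 36.4% and 44.2% of all analysed genes. Of the 1051 genes with the highest levels, 56.9% were highest in library 2. The germline list had 5 analysed members of 40 in the files, the 4 Y genes and bol, with a median ratio of 2.64. Without library 2 the median was 1.45, without library 1 it was 1.83 and without library 3 it was 2.64.

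kl-5 had 418 CPM in library 1, 1687 CPM in library 2 and 701 CPM in library 3, a ratio of 4.04. CCY had 384, 1205 and 567 CPM, a ratio of 3.14. ORY had 1527, 4034 and 2209 CPM, a ratio of 2.64, and Ppr-Y, described above, had a ratio of 1.94. The order of libraries was the same in all 4 genes, and kl-5 rested on 16986 to 70949 reads in each library. On the Y, kl-5 spans positions 22250 to 137486 and Ppr-Y 1636574 to 1884846, whereas CCY is shorter, from 3649996 to 3666928. All 4 Y genes belong to the 1051 genes with the highest levels. Of these 1051, 4 (0.381%) reached a ratio of 2, and kl-5, CCY and ORY are 3 of these 4.

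Other Y genes did not share this order. kl-3 had 7.41, 6.47 and 10.7 CPM, kl-2 had 7.51, 4.75 and 2.16 CPM, PRY 4.55, 1.97 and 1.69 CPM, and WDY 3.32, 1.74 and 2.23 CPM. Library 2 was the highest for none of them. bol, an RNA-binding protein gene needed for male meiosis and located on an autosome, had 957, 1119 and 1080 CPM.

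The 27 other testis genes of the list, none on the Y, were at a mean of at most 5.55 CPM. Their summed level was 31.7 CPM in library 1, 10.1 CPM in library 2 and 55.3 CPM in library 3, and 14 of them were highest in library 3, 10 in library 1 and 0 in library 2. dj, a sperm tail gene, had 222 reads in library 3 and 0 in libraries 1 and 2, and ocn had 232, 1 and 0 reads in libraries 3, 1 and 2. Mst98Ca, also expressed in the male germline, had 491 reads in library 3, 78 in library 1 and 0 in library 2. The library with the most Y-linked RNA was the one with the least RNA of the other testis genes.

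The 6 actin genes encode near-identical proteins, so reads in their coding parts may be split uncertainly. Their median ratio was 1.52, and without library 1 it was 1.05. Act88F, the actin of the indirect flight muscle, had 207 CPM in library 3, 3.30 CPM in library 1 and 1.62 CPM in library 2. These were 9190, 134 and 68 reads, a ratio of 128. Act88F passed the level minimum only through library 3, so it had to differ and be highest there. Act79B, an actin of leg and other tubular muscle, had 224 CPM in library 3, 69.8 CPM in library 1 and 77.2 CPM in library 2, a ratio of 3.21. The widely expressed Act5C had 1200, 1343 and 1401 CPM in libraries 1, 2 and 3, and Act42A had 134, 127 and 134 CPM.

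Across muscle structural genes, 27 of 31 in the files passed the minimum, 19 of which were highest in library 3, beside 30.7% of all analysed genes. Under the other scalings this number was 18 or 19. Their median ratio was 1.39 and 4 of 27 reached a ratio of 2, beside 5.42% of all. The genes that reached it included Act88F, which passed the minimum only through library 3. The muscle list shares Act57B, Act79B, Act87E and Act88F with the actins above. Mhc, the muscle myosin heavy chain, had 1955, 2453 and 2811 CPM in libraries 1, 2 and 3, and the myosin light chain Mlc2 had 674, 643 and 1002 CPM. The Z-disc gene Zasp52 had 324, 287 and 491 CPM, and the troponin C gene TpnC73F had 31.3, 42.8 and 65.2 CPM. Msp300, a giant protein that ties nuclei to the cytoskeleton and the most abundant gene of the list, varied little, with 4195, 4665 and 4564 CPM. The flight muscle genes fln and TpnC4 were at or near 0, fln with 0.0492, 0.357 and 0.607 CPM and TpnC4 with no read. Mf and Mlp84B, which act in muscle more generally, also had no read in any library.

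Several of the largest ratios in the whole table also belonged to library 3. The genes named here passed the level minimum only through library 3, so they had to differ and be highest there. CG15617 had 1586 reads there (35.7 CPM), 20 in library 2 and 0 in library 1, at least 483-fold higher in library 3 than in library 1 against a floor of 3 reads in library 1. CG30371 had 43.8 CPM in library 3, 1.25 CPM in library 1 and 0.475 CPM in library 2. FBgn0038762 and FBgn0267727, IDs without a symbol, had 41.8 and 31.4 CPM in library 3 and at most 3.74 CPM in the others. Lsp1gamma, a storage protein of larval haemolymph, had 20.5 CPM in library 3, 3.35 CPM in library 1 and 6.87 CPM in library 2.

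Glutathione S-transferases, which conjugate glutathione to toxic compounds, had a median ratio of 1.61 over 10 analysed genes of 36. Of the 10, 2 reached a ratio of 2, beside 5.42% of all analysed genes. The list's median member had a mean of 18.9 CPM, and weakly expressed genes reached this ratio more often. It was reached by 189 of the 1051 genes from 10 to 18.2 CPM and 68 of the 1051 from 18.2 to 37.6 CPM. The median ratios of these genes were 1.52 and 1.35. GstS1, an enzyme known from indirect flight muscle, had 167 CPM in library 3, 78.0 CPM in library 1 and 55.1 CPM in library 2. GstD11 had 18.4, 10.7 and 22.0 CPM in libraries 3, 1 and 2. The list did not move as 1 block, as 3 members were highest in library 1, 3 in library 2 and 4 in library 3. Cytochrome P450s had a median of 1.40 over 15 of 80 genes, of which 9 were highest in library 1, beside 33.0% of all analysed genes (52.3% with total counts). Cyp4c3 had 20.3, 8.08 and 5.08 CPM in libraries 1, 2 and 3, and passed the level minimum only through library 1.

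Mitochondrially encoded RNAs are made outside the nucleus. Of 37 genes, 10 passed the minimum with a median ratio of 1.54, and 9 of the 10 were highest in library 1 under all scalings tried. Of all analysed genes, 33.0% were highest in library 1 with TMM factors and 52.3% with total counts. Their summed level was 12787 CPM in library 1, 9341 CPM in library 2 and 7873 CPM in library 3. mt:lrRNA is described above, and mt:srRNA, the small ribosomal RNA, had 1337, 818 and 733 CPM. mt:CoI, a catalytic subunit of cytochrome c oxidase, had 1468, 923 and 945 CPM. The widest ratio was that of mt:ATPase6 with 169, 47.9 and 52.4 CPM, or 3.53, followed by mt:ND4 with 126, 53.2 and 43.5 CPM. The exception was mt:ND1, which was highest in library 3 with 355 CPM, against 315 CPM in library 1 and 237 CPM in library 2. Without library 1 the median ratio of the list was 1.11. The share of reads outside genes was also highest in library 1, at 2.84%, with 2.15% in library 2 and 1.66% in library 3.

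Nuclear-encoded genes of the respiratory chain followed another order: of 58 analysed, 28 were highest in library 3, 18 in library 1 and 12 in library 2, beside 30.7%, 33.0% and 36.4% of all analysed genes. Under the other scalings 22 to 30 were highest in library 3 and 16 to 27 in library 1. With total counts the order turned round, with 22 highest in library 3 and 27 in library 1. Their median ratio was 1.29, near that of all genes.

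Kenyon cell markers had a median ratio of 1.41 and no member reached a ratio of 2. The median depends on the scaling: with total counts it was 1.26, beside 1.27 for all genes, and with total counts without the 20 most abundant genes it was 1.28, as for all genes. All 22 were lowest in library 1, 17 were highest in library 2 and 5 in library 3. Of all analysed genes, 44.2% were lowest in library 1, 36.4% highest in library 2 and 30.7% highest in library 3. The list's median member had a mean of 869 CPM. Of the 1051 genes with the highest levels, 56.9% were highest in library 2 and 28.5% in library 3. Under the other scalings 18 to 22 of the markers were lowest in library 1 and 15 to 17 highest in library 2. With total counts, 1398 of all 5262 genes at the minimum were lowest in library 1. ey, the Pax6 factor needed for mushroom body development, had 414 CPM in library 1, 698 CPM in library 2 and 555 CPM in library 3. dac, another transcription factor of these neurons, had 282, 449 and 368 CPM, and the octopamine receptor gene Oamb had 293, 464 and 441 CPM. The adenylyl cyclase gene rut and the phosphodiesterase gene dnc, both known from memory mutants, had 1920, 2625 and 2713 CPM and 917, 1310 and 1221 CPM. Eip93F and jim differed least, with ratios of 1.11 and 1.10. Without library 1 the median of the list was 1.08.

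Pan-neuronal genes were also mostly highest in library 2, in 15 of 17 cases, as were 30 of 37 genes of synaptic vesicles and active zones, 23 of 32 voltage-gated and leak channels and 8 of 9 nicotinic acetylcholine receptors. Some of these lists share members, such as Rim in the pan-neuronal and synaptic lists, so their counts are not independent. The active zone scaffold gene brp had 2072, 3061 and 2942 CPM in libraries 1, 2 and 3, and Rim had 1980, 2946 and 2807 CPM. These lists hold strongly expressed genes, and 56.9% of the 1051 genes with the highest levels were highest in library 2. Proteasome subunits were also mostly highest in library 2, 23 of 29, at a median level of 45.6 CPM. Library 2 was highest for 36.4% of all analysed genes and for 33.1% of those from 37.6 to 83.4 CPM. Rpn1 had 122, 163 and 97.4 CPM, and Prosbeta1, a catalytic subunit, had 14.99, 37.4 and 24.0 CPM.

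**Figure D4:**
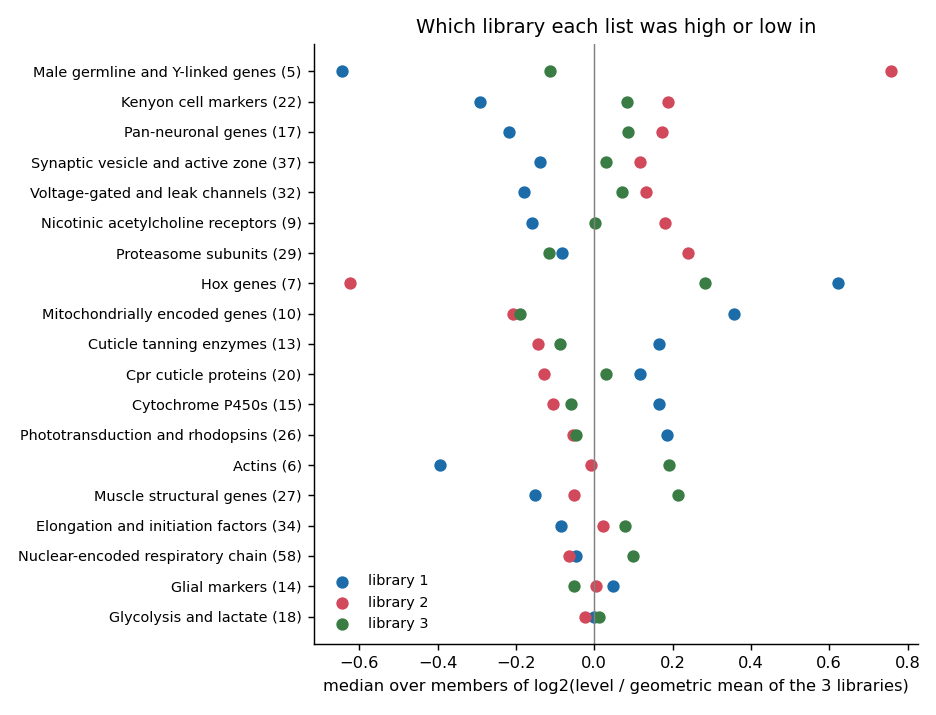
Median over the analysed members of each list of the log2 level in a library relative to the geometric mean of the 3 libraries, with the number of members in brackets. Blue, red and green points are libraries 1, 2 and 3. Kenyon cell, pan-neuronal, synaptic, channel and receptor lists lie lowest in library 1, mitochondrially encoded genes lie highest in it, Hox genes lie lowest in library 2, and muscle genes highest in library 3, whereas the glycolysis points nearly coincide.

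In other lists most members were highest in library 1, as were 33.0% of all analysed genes with TMM factors and 52.3% with total counts. Of 13 analysed neuropeptide genes, 8 were highest there (7 to 10 over the scalings tried), with a list median of 1.42. CCHa1 had 63.0, 38.8 and 44.3 CPM in libraries 1, 2 and 3, whereas sNPF, a peptide made by Kenyon cells, had 845, 1130 and 995 CPM. Cuticle proteins of the Cpr family were highest in library 1 in 13 of 20 cases (11 to 16 over the scalings), and cuticle tanning genes in 8 of 13 (8 to 12). ple, the tyrosine hydroxylase that starts both dopamine synthesis and tanning, had 3260, 2550 and 3092 CPM, and e, which makes the sclerotization precursor N-beta-alanyldopamine, had 2247, 1775 and 2015 CPM. Phototransduction genes and rhodopsins were highest in library 1 in 16 of 26 cases (15 to 17 over the scalings). ninaE had 1724, 1386 and 1479 CPM.

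Cell death genes had a median ratio of 1.40 over 13 genes. Gadd45, a stress response gene, had 25.1, 38.5 and 54.7 CPM in libraries 1, 2 and 3, a ratio of 2.18. Debcl, a Bcl-2 family gene, had 27.5, 13.3 and 20.5 CPM, and egr, the fly tumour necrosis factor, had 28.2, 14.6 and 19.2 CPM. Members of the neprilysin and Ance peptidase list stayed within a ratio of 1.78 with a median of 1.44.

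Among the lists with the smallest medians, EcR, the ecdysone receptor, had 811, 838 and 834 CPM and its target Eip75B had 1494, 1471 and 1713 CPM. ImpE1 was the exception in this list. The glial glutamine synthetase gene Gs2 had 952, 961 and 1005 CPM, and the glycolytic aldolase gene Ald1 had 797, 778 and 796 CPM.

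Of 1797 lncRNA genes, 49 passed the minimum. Their median ratio was 1.36, and 12 of the 49 reached a ratio of 2, beside 5.42% of all analysed genes. The median member had a mean of 35.2 CPM, and 68 of the 1051 genes from 18.2 to 37.6 CPM reached this ratio. lncRNA:CR32773 had 38.7, 4.59 and 4.16 CPM in libraries 1, 2 and 3, and lncRNA:CR45973 had 109, 37.7 and 86.7 CPM. Of these, lncRNA:CR32773 passed the level minimum only through library 1, so it had to differ. snoRNA:Psi18S-176, a guide of ribosomal RNA pseudouridylation and the single snoRNA above the minimum, had 2.81, 17.7 and 16.2 CPM.

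The distribution of read counts bears on how far these reads can be taken as independent molecules. In libraries 1, 2 and 3, 178, 302 and 256 genes had 1 to 9 reads, whereas 985, 746 and 844 genes had 20 to 39 reads. The 5th percentile of the counts above 0 was 24, 14 and 18 reads. The exact 95% counting interval of the ratio lay above 1 for 5059 of the 5255 genes, but it covers counting error only, and it is too narrow where reads are copies of the same molecule. It was not used to choose or rank any gene.

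**Figure D5:**
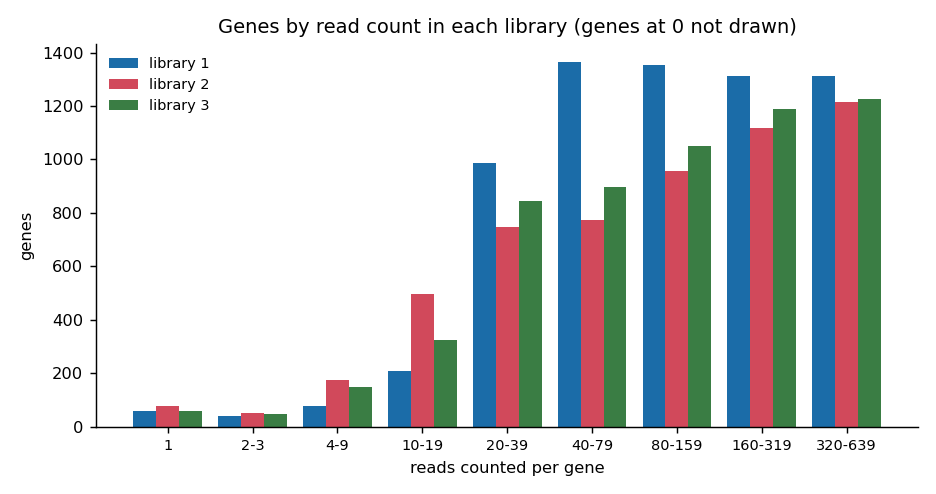
Number of genes by reads counted in libraries 1, 2 and 3; genes with no read or with larger counts are not drawn. Few genes have 1 to 9 reads, and the bars step up between the bins of 10 to 19 and 20 to 39 reads, most sharply in library 1 (209 and 985 genes).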

How the data were processed

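Per the labels' protocols, RNA of INTACT-purified nuclei was extracted with the PicoPure kit and made into libraries with the Nugen Ovation system for Drosophila. Per the submitters' processing notes, alignment to BDGP6 used STAR 2.5.3a and gene counting used HTSeq 0.7.1. The deposited files hold raw read counts per gene, not normalized by the authors, as whole-number values that sum to different totals show. Strand, counting mode and annotation of that step were not given in the sources used. Of the 5255 genes analysed, 2627 overlap another gene, and their reads cannot be told apart without strand. Entries for reads outside genes (1.66% to 2.84%) and ambiguous reads (7.08% to 7.29%) stayed out of the totals.

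Counts of the 3 libraries were scaled with TMM factors from edgeR 4.0.16 in R 4.3.3, from these libraries alone. Symbols, positions and exon lengths came from Ensembl release 115 on BDGP6.54, which named 17253 IDs and left 306 without a symbol. Only genes with a mean of 10 CPM or more were ranked, and lists with at least 5 such genes. Where the lowest library had no read, its level was raised to 3 counts, as a floor. Smaller counts than 3 were otherwise kept, as for FBgn0038762 with 2 reads in library 2. edgeR and DESeq2 1.42.0 gave alternatives of scale or spread, and no test was made. The ratio procedure was tested on simulated data. No sequence or base composition was used.

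Named genes were taken from the 20 most abundant, the 20 largest ratios, the 5 smallest ratios at 100 CPM or more, the leading members of the 10 most and 3 least variable lists, and the 3 most abundant members of each cell marker list. The Hox and Y-linked genes, the testis, muscle, mitochondrial, Kenyon cell, neuronal and proteasome genes named beside these, and the lncRNAs under the largest ratios were chosen after their values were seen. The libraries and the gene lists were chosen with earlier results of these data known.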

Additional observations from a re-analysis of the deposited data

How the results depend on the processing

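Of 234 values recomputed under alternatives, 175 stayed within a limit and 59 moved past it. The limit was an interval over genes for shares and medians and a fixed factor for counts. For the germline and Y, Hox, actin and peptidase lists it was the full range of the members, so their medians seldom passed it. The Hox median, 2.08 in the main setting, stayed within it at 3.30 (minimum of 5 CPM) and 11.5 (no filter). The causes were not tested, except that fewer libraries lower a ratio by construction. Of all genes, the percent at a ratio of 2 or more, the percent at 4 or more and the median ratio were 12.1%, 1.99% and 1.32 at a mean of 5 CPM or more, 1.93%, 0.124% and 1.24 at 20 CPM, and 46.3%, 32.3% and 1.81 with no filter. Genes at 4 or more that were highest in libraries 1, 2 and 3 numbered 79, 17 and 34 at 5 CPM, 2, 1 and 2 at 20 CPM, and 2476, 511 and 967 with no filter. With no filter the medians of the germline and Y list, glutathione S-transferases, neuropeptides and P450s were 8.38, 2.34, 1.85 and 2.35. Total counts gave 6.80% at 2 or more. Total counts without the 20 most abundant genes gave 7.61% at 2 or more and 0.748% at 4 or more, with 26, 1 and 14 genes. Library 2 had 1 such gene with total counts and with upper-quartile factors. Factors from all 15 libraries gave a median of 1.29, as did genes that overlap no other, where library 1 had 5 genes at 4 or more. Of the 10 lists with the highest medians, 6 remained with total counts, 5 at 5 CPM, 1 with no filter, 6 among genes without overlap, 4 by edgeR's coefficient of variation and 6 with at least 8 members. Among genes without overlap too few members were left to rank the germline and Y list, the Hox genes, actins or peptidases.

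Leaving out each library in turn gave 1.45% to 3.28% of genes at 2 or more, 0.232% to 0.396% at 4 or more, medians of 1.12 to 1.19, and 10 to 17, 0 to 2 and 11 to 12 genes at 4 or more in libraries 1, 2 and 3. List medians ranged from 1.45 to 2.64 (germline and Y), 1.78 to 2.05 (Hox), 1.29 to 1.50 (glutathione S-transferases), 1.11 to 1.47 (mitochondrial), 1.05 to 1.50 (actins), 1.13 to 1.27 (peptidases), 1.14 to 1.34 (neuropeptides), 1.08 to 1.38 (Kenyon cells), 1.12 to 1.28 (P450s), 1.15 to 1.34 (cell death), 1.06 to 1.08 (glia), 1.06 to 1.09 (glycolysis) and 1.10 to 1.13 (ecdysone). Of the 10 lists, 5 to 8 remained.

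No paired analysis was possible because the results come from no test and from 1 group. Depth limits genes under 10 CPM, where 3 reads are 0.0674 to 0.0738 CPM.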

Other observations

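Some families had too few genes above the minimum to be ranked, and the summed levels of many of these were highest in library 1. Chemosensory receptors, the odorant, gustatory and ionotropic receptors and ppk channels of sensory neurons, summed to 450 CPM in library 1, 204 CPM in library 2 and 247 CPM in library 3. Ir41a, an ionotropic receptor gene, had 35.3, 10.8 and 8.61 CPM in these libraries, though it overlaps many other genes. Osiris genes, expressed in cuticle-forming cells, summed to 53.7, 16.8 and 20.6 CPM. Genes of the E(spl) complex, targets of Notch, summed to 19.5, 5.11 and 11.2 CPM, and tRNA genes to 21.3, 2.71 and 3.55 CPM. snoRNA genes ran the other way, with 5.83, 20.4 and 18.5 CPM. Sums of innexins and Turandot stress genes were also highest in library 2, and those of mitochondrial ribosomal proteins and snRNA genes in library 3. All genes under 10 CPM together were also highest in library 1, with 20290, 14364 and 16118 CPM.

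Chromosomes differed in which library was highest. Of 77 analysed genes on chromosome 4, 62.3% were highest in library 2, beside 36.4% of all analysed genes, and their median ratio was 1.22. On the X the median was 1.26, with 39.2% highest in library 2.

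The scarcity of genes with few reads was seen in the other juvenile libraries too. The same driver expressed a hairpin against Bap60, a subunit of the Brahma chromatin remodelling complex, in the knockdown libraries, and the mature flies were 1 to 5 days old. The 2 juvenile knockdown libraries had 243 to 273 genes with 1 to 9 reads, and the 3 juvenile mCherry controls 178 to 302. The 5 mature knockdown libraries had 1323 to 2423 and the 5 mature mCherry controls 1323 to 2989.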
